A study of Mus musculus with 40 samples.

Results

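White fat from under the skin (subcutaneous white adipose tissue, sWAT) was compared between mice kept on a high-fat diet (HFD) with semaglutide and lean mice kept on a normal diet (ND). The libraries were chosen by their treatment labels, 8 for semaglutide and 8 for ND, which makes 16 of the 40 RNA libraries of the series. All genes that passed a filter on low counts were tested, to see which of them lay away from the lean level under the drug. The semaglutide mice carried the high-fat diet as well as the drug, and the ND mice neither, so the effects of the diet and of the drug on a difference between them cannot be told apart. The 8 libraries of mice on HFD without a drug are therefore set beside them, with the values of each comparison given for the same gene. The labels give the tissue, the diet and the drug, and no strain, sex, age, dose, length of treatment, feeding state or hour of collection. They call the members of a group samples and do not say that these are separate animals, so the p-values speak of the scatter among these samples, which may be technical.

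White adipocytes make fatty acids from citrate through ATP citrate lyase, acetyl-CoA carboxylase and fatty acid synthase, a pathway that insulin and dietary carbohydrate induce, and store them as triglyceride in a lipid droplet. Semaglutide, a long-acting agonist at the glucagon-like peptide 1 receptor, is known for lowering food intake and body weight. Adipose tissue also holds a circadian clock, in which the activators BMAL1 (gene Arntl) and CLOCK drive the Per, Cry and Nr1d genes, whose products repress the activators in turn.

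The libraries held about 3134120 to 4203800 counts each with semaglutide and 2879060 to 4466930 in ND. Adipocyte markers were high in all of them, with a mean over 6 genes of 9.90 to 10.8 log2 CPM (counts scaled to a common library total) with semaglutide and 9.50 to 10.6 in ND, and none of the 10 markers of mammary or other epithelium passed the filter. Some libraries stood apart. The mean of the 3 tested B cell markers (of 8) was 6.39, 5.80 and 5.66 log2 CPM in semaglutide libraries 1, 3 and 8 and 6.58 in ND library 5, with group medians of 1.37 with semaglutide and 0.924 in ND. ND library 5 also had the lowest adipocyte value, and T cell markers were high in these libraries too. Skeletal muscle markers (12 tested of 14) had a median of 1.23 log2 CPM with semaglutide, highest 4.20, and of 3.12 in ND, where libraries 6 and 8 reached 7.80 and 7.74. The library numbers of the labels follow the groups, so the effect of library order cannot be told apart from that of the group. Numbers of the ND libraries are also set apart by a gap, while those of all other groups run on without a break. Both comparisons with ND cross this gap. In whole tissue, fewer cells of a type and less RNA per cell cannot be told apart either.

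Of 15807 genes tested, 417 differed between semaglutide and ND (2.64%; edgeR adjusted p under 0.05). Of these, 143 were higher with semaglutide (0.905% of genes tested) and 274 lower (1.73%). On HFD without a drug 712 genes differed from ND (4.50%), 447 higher (2.83%) and 265 lower (1.68%). Between semaglutide and HFD, 656 genes differed (4.15%), 241 higher (1.52%) and 415 lower (2.63%) with semaglutide. These comparisons share libraries, so their counts are not independent of one another. The median log2 fold change over all genes was 0.03 for semaglutide minus ND. In 123 genes (0.778%) the 8 semaglutide libraries did not overlap the 8 ND libraries, 20 with semaglutide higher (0.127%) and 103 with it lower (0.652%). The number called depended on single libraries. It was 853 without ND library 5 (382 higher, 471 lower), 264 without ND 1, 256 without ND 4 and 272 without semaglutide 3. Among genes higher with semaglutide, the number was 69, 88, 90, 72 and 83 without ND 1, 2, 3, 4 and 8, and 79, 90, 81 and 85 without semaglutide 3, 4, 5 and 7. Without the 4 libraries high in B cell markers the number called was 330 (122 higher, 208 lower). Without the libraries above 5 log2 CPM in muscle markers it was 286 (70 higher, 216 lower). That limit was applied to the whole series. It removed no semaglutide library, but besides ND 6 and 8 it took out HFD 4 and libraries of groups not compared here. The part of this smaller fit in the change was not tested.

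By the log2 fold change, among called genes in which each group lay wholly on 1 side of the other's median and whose mean was at least 2 log2 CPM, the 12 highest included Ubd, Crtac1, Per2, Ciart, Cacna1e, Synpo2, Il1rn, Wee1, Zfyve28, Cdk1 and Per3. The 12 lowest were all Mup genes. Such separated genes numbered 81 higher and 187 lower, including 1 and 21 predicted genes that are not named. The plot of calls by gene list sets the lists side by side.

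**Figure D1:**
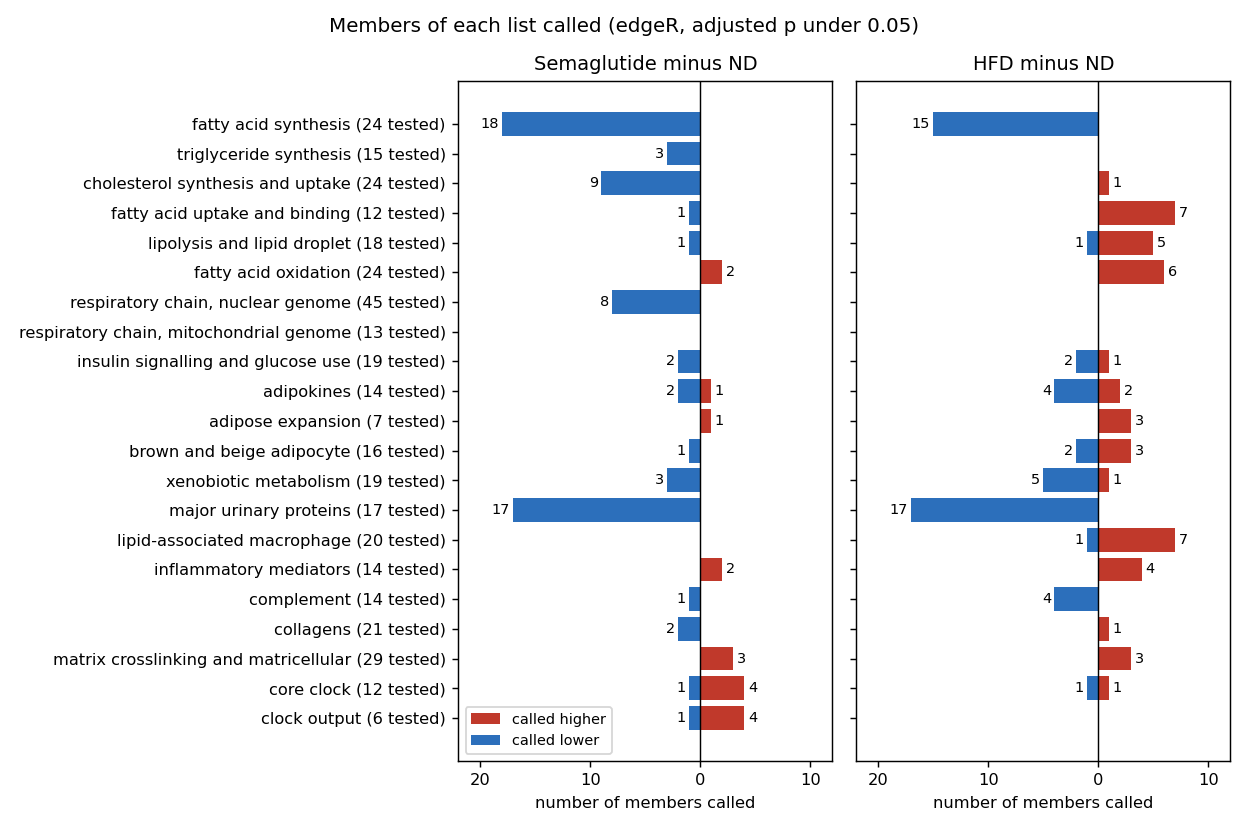
Number of members of each gene list called higher (red, right) or lower (blue, left) than in ND, for semaglutide (left panel) and HFD (right panel), with the number of members tested beside the name. Fatty acid synthesis had 18 members lower with semaglutide and 15 on HFD, and cholesterol synthesis 9 lower with semaglutide and 0 on HFD.

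Fatty acid synthesis had the largest number of members called among the lists examined. Of 24 members tested (of 25), 18 were lower with semaglutide than in ND and none was higher, where 1.73% of all genes were lower. The median log2 fold change of the list was -1.35, against 0.03 over all genes. In 14 members semaglutide was lower with no overlap of the libraries, as it was in 0.652% of all genes. On HFD, 15 were lower than in ND (1.68% of all genes were) and the list's median was -1.14. The 18 calls were also 18 without the B cell-high libraries and 18 without the muscle-high libraries.

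Fasn, fatty acid synthase (GRCm38 chromosome 11, 120805846 to 120824547), had a lowest, median and highest value of 301, 436 and 1141 CPM with semaglutide, 736, 1036 and 1247 on HFD and 2936, 4577 and 6859 in ND. All 8 semaglutide libraries lay below all 8 ND libraries, and so did all 8 HFD libraries. The log2 fold change was -3.22 ± 0.37 (SE) for semaglutide minus ND (edgeR adjusted p = 2.87e-07), beside -2.29 ± 0.35 for HFD minus ND. Semaglutide and HFD themselves differed by -0.94 ± 0.34 (edgeR adjusted p = 0.108), which did not pass.

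Acaca, the acetyl-CoA carboxylase of the cytosol, had 46.8, 66.2 and 112 CPM with semaglutide, 58.3, 67.9 and 72.4 on HFD and 285, 451 and 554 in ND. The semaglutide and HFD libraries lay in the same low range, far below ND, with log2 fold changes of -2.62 ± 0.27 for semaglutide minus ND (edgeR adjusted p = 3.98e-08) and -2.71 ± 0.27 for HFD minus ND. Acly, ATP citrate lyase, which makes cytosolic acetyl-CoA, was 2.58 ± 0.35 log2 lower with semaglutide than in ND (87.0 to 127 against 345 to 975 CPM). Elovl6, the elongase of palmitate, was chosen after its values were seen and had 7.28 to 22.0 CPM with semaglutide against 32.4 to 103 in ND. Thrsp, a lipogenic regulator, and Tkt, transketolase of the pentose phosphate pathway, had log2 fold changes of -2.29 ± 0.25 and -2.06 ± 0.25, again with no overlap of the libraries.

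Scd1, stearoyl-CoA desaturase, which makes monounsaturated fatty acids, was lower than in ND by a smaller margin. It had 2074, 4853 and 6239 CPM with semaglutide, 2729, 3344 and 4521 on HFD and 8869, 11071 and 16273 in ND. The groups did not overlap with ND, and the log2 fold changes were -1.35 ± 0.20 with semaglutide (edgeR adjusted p = 1.41e-05) and -1.80 ± 0.21 on HFD.

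Another 4 genes that supply or extend the pathway, picked after their values were seen, were lower with semaglutide than in ND and than on HFD. Of them Slc25a1, Me1 and Scd2 did not pass for HFD minus ND, and Acss2 did. Slc25a1, the mitochondrial citrate carrier, had 186, 226 and 358 CPM with semaglutide, 433, 721 and 1192 on HFD and 473, 635 and 946 in ND. All 8 semaglutide libraries lay below all HFD and all ND libraries. Its log2 fold change was -1.46 ± 0.30 for semaglutide minus ND (edgeR adjusted p = 0.00215), 0.23 ± 0.29 for HFD minus ND (0.742) and -1.69 ± 0.30 for semaglutide minus HFD (0.00039).

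Me1, malic enzyme, which supplies NADPH, had 60.5, 120 and 155 CPM with semaglutide, 148, 244 and 337 on HFD and 199.9, 295 and 390 in ND. The semaglutide libraries lay below all ND libraries, with log2 fold changes of -1.36 ± 0.23 for semaglutide minus ND and -0.23 ± 0.23 for HFD minus ND. Acss2, which activates acetate, and Scd2, a second desaturase, were lower with semaglutide by 2.18 ± 0.31 and 1.82 ± 0.29 log2, where HFD minus ND gave -1.12 ± 0.30 and -0.70 ± 0.28. The plot of lipid genes by library sets semaglutide, HFD and ND side by side.

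**Figure D2:**
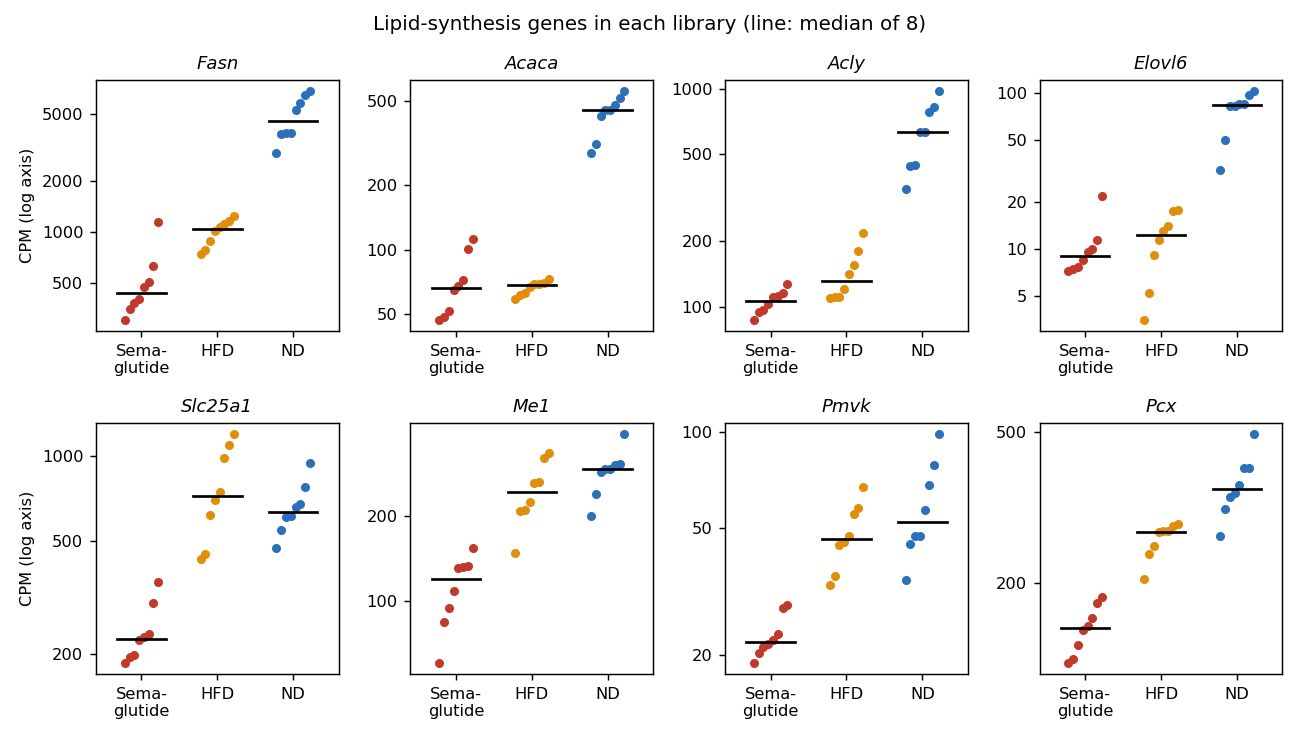
CPM on a log axis of 8 lipid-synthesis genes in each library (points), with the median of 8 as a line, for semaglutide, HFD and ND. Fasn, Acaca, Acly and Elovl6 are low with semaglutide and on HFD, and the Fasn median is lower with semaglutide than on HFD. The medians of Slc25a1, Me1, Pmvk and Pcx are also lower with semaglutide than on HFD, with overlapping ranges for Me1.

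In triglyceride synthesis, 3 of 15 members were lower with semaglutide than in ND (1.73% of all genes were) and none was higher. The list median was -0.28. On HFD no member differed from ND, and the median was 0.20. Dgat2, which adds the last fatty acid, had 880.04, 1034 and 1415 CPM with semaglutide, 1268, 2317 and 2887 on HFD and 859.6, 1799 and 3834 in ND. Here the groups overlapped, since 1 ND library lay below the semaglutide median, and the log2 fold change was -1.0 ± 0.27 (edgeR adjusted p = 0.0331). Agpat2, the acyltransferase of the second step, and Gpd1, which makes glycerol 3-phosphate, had -0.91 ± 0.24 (0.0291) and -0.63 ± 0.18 (0.0449). These 3 calls lie close to the threshold: leaving out 1 library ended the call of Agpat2 for 7 of the 16 libraries (edgeR adjusted p up to 0.0689), of Dgat2 for 9 (up to 0.101) and of Gpd1 for 12 (up to 0.113).

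Cholesterol synthesis and uptake had 9 of 24 members lower with semaglutide than in ND (1.73% of all genes were) and none higher. The list median was -0.70. On HFD none was lower and 1 was higher, with a median of -0.05. Pmvk, phosphomevalonate kinase, showed it most clearly, with 18.9, 21.9 and 28.6 CPM with semaglutide, 33.1, 46.0 and 66.8 on HFD and 34.4, 52.1 and 98 in ND. The semaglutide libraries lay below all HFD and all ND libraries, with log2 fold changes of -1.37 ± 0.19 for semaglutide minus ND (edgeR adjusted p = 6.2e-06) and -0.30 ± 0.19 for HFD minus ND. Fdps, farnesyl diphosphate synthase, was lower by 1.13 ± 0.26 log2 than in ND, and Cyp51, the lanosterol demethylase, by 1.04 ± 0.25, both with overlap of the groups. Dhcr7, Mvd and Mvk, further enzymes of sterol synthesis, were lower by 0.81 ± 0.20, 1.08 ± 0.28 and 0.73 ± 0.20 log2. Without the B cell-high libraries 5 members were called, all lower. Leaving out ND 2 ended the call of Cyp51 (edgeR adjusted p = 0.0598), leaving out ND 2 or ND 4 that of Dhcr7 (up to 0.0698), leaving out ND 2, ND 4 or semaglutide 2 that of Mvd (up to 0.101), and leaving out any of 6 libraries that of Mvk (up to 0.133).

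In the insulin signalling and glucose use list, 2 of 19 members were lower with semaglutide (1.73% of all genes were) and none was higher. Of the log2 fold changes, 10 were positive and 9 negative, with a median of 0.10. Pcx, pyruvate carboxylase, which feeds citrate and glycerol synthesis, had 123, 153 and 184 CPM with semaglutide, 205, 274 and 287 on HFD and 267, 354 and 494 in ND. The semaglutide libraries lay below all others, and the log2 fold change was -1.27 ± 0.17 for semaglutide minus ND (edgeR adjusted p = 2.4e-06) and -0.49 ± 0.17 for HFD minus ND (0.0848). Slc2a4, the insulin-responsive glucose transporter GLUT4, had 50.9 to 78.2 CPM with semaglutide and 73.5 to 143 in ND, with log2 fold changes of -0.74 ± 0.15 (edgeR adjusted p = 0.00177) beside -0.58 ± 0.15 on HFD. These were the 2 members called. Insr, the insulin receptor, and Irs1, its substrate, gave 0.22 ± 0.22 and 0.64 ± 0.20 and did not pass. Leaving out semaglutide 1 brought Irs1 past the threshold (edgeR adjusted p = 0.0314). With all libraries kept Irs1 passed with limma-voom (adjusted p = 0.0175).

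A list of 14 glycolytic enzymes, written after the values were seen, had 5 members lower with semaglutide (1.73% of all genes) and none higher. Its median was -0.62. On HFD none differed from ND, with a median of -0.17. Aldoa, aldolase A, had 264, 352 and 437 CPM with semaglutide, 471, 563 and 754 on HFD and 445, 638 and 913 in ND. The semaglutide libraries lay below all others, with a log2 fold change of -0.94 ± 0.19 for semaglutide minus ND (edgeR adjusted p = 0.00119). Ldha, lactate dehydrogenase, had 152, 185 and 223 CPM with semaglutide, 216, 263 and 308 on HFD and 253, 366 and 409.7 in ND, a log2 fold change of -0.83 ± 0.15 for semaglutide minus ND. Pkm, Eno1 and Gapdh gave -0.96 ± 0.21, -0.83 ± 0.15 and -0.80 ± 0.18 without overlap of the groups, and since Gapdh and Eno1 have near-identical copies elsewhere in the genome their counts are uncertain. Several glycolytic genes are also strong in muscle, whose markers were higher in some ND libraries. Without the muscle-high libraries the list had 6 members lower and none higher, with a median of -0.49. ND 1 and 3, at 3.73 and 4.68 log2 CPM in muscle markers, stayed in that fit. The part of muscle in these values was not tested.

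Of 45 nuclear-encoded subunits of the respiratory chain, 8 were lower with semaglutide than in ND (1.73% of all genes were). None was higher and 37 did not pass, while 42 had a negative log2 fold change, with a median of -0.27. On HFD no member differed from ND, with a median of -0.10. Uqcrq, a subunit of complex III, had 228, 271 and 318 CPM with semaglutide, 306, 353 and 482 on HFD and 285, 421 and 585 in ND, and its log2 fold change was -0.67 ± 0.15 for semaglutide minus ND (edgeR adjusted p = 0.00485). Ndufs3 and Ndufb8 of complex I gave -0.55 ± 0.14 and -0.48 ± 0.12, Cox5b of complex IV -0.48 ± 0.13, and Atp5b and Atp5c1 of the ATP synthase -0.44 ± 0.12 and -0.51 ± 0.13. The count was sensitive to the libraries that stand apart, since 4 subunits were called without the B cell-high libraries and 2 without the muscle-high libraries. Leaving out single libraries ended the calls of Ndufs3 (semaglutide 3, edgeR adjusted p = 0.0575), Ndufb8 (ND 4, 6 or 8, up to 0.0551), Atp5b and Atp5c1 (5 libraries each, up to 0.0813 and 0.0623) and Cox5b (10 libraries, up to 0.112). None of the 13 respiratory genes of the mitochondrial genome passed, though all 13 had a negative log2 fold change (median -0.28), and the nuclear and mitochondrial parts were not tested against each other.

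The ribosomal RNA genes of the mitochondrial genome, looked at after their values were seen, stood out from its other genes. mt-Rnr2, the large ribosomal RNA, had 22593, 24615 and 33502 CPM with semaglutide, 24752, 30429 and 40302 on HFD and 40069, 51606 and 79418 in ND. The semaglutide and ND libraries did not overlap, and the log2 fold change was -1.08 ± 0.18 (edgeR adjusted p = 9.56e-05), beside -0.80 ± 0.18 for HFD minus ND. mt-Rnr1, the small one, gave -0.86 ± 0.19 (edgeR adjusted p = 0.0041), beside -0.49 ± 0.19 on HFD.

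As a share of all counts of a library, the 2 rRNA genes took 4.38 ± 0.737% with semaglutide, 4.85 ± 0.671% on HFD and 7.77 ± 1.24% in ND (SD, n = 8 each). The rest of the mitochondrial genome took 6.57 ± 1.08%, 6.92 ± 1.64% and 7.06 ± 1.52% in the same groups. The ND group was thus the high one for the rRNA genes, while the rest of the mitochondrial genome overlapped widely. In the series' other groups the rRNA share was 4.67 ± 0.887% with tirzepatide and 4.83 ± 0.887% after the diet switch, both on the side of semaglutide. Library order runs with the groups here, and a gap in the numbers sets ND apart from all other groups. The part of library order in the rRNA share cannot be told apart from that of the treatment. These are libraries of 3' RNA sequencing, and how closely their counts follow the amount of rRNA was not tested.

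**Figure D3:**
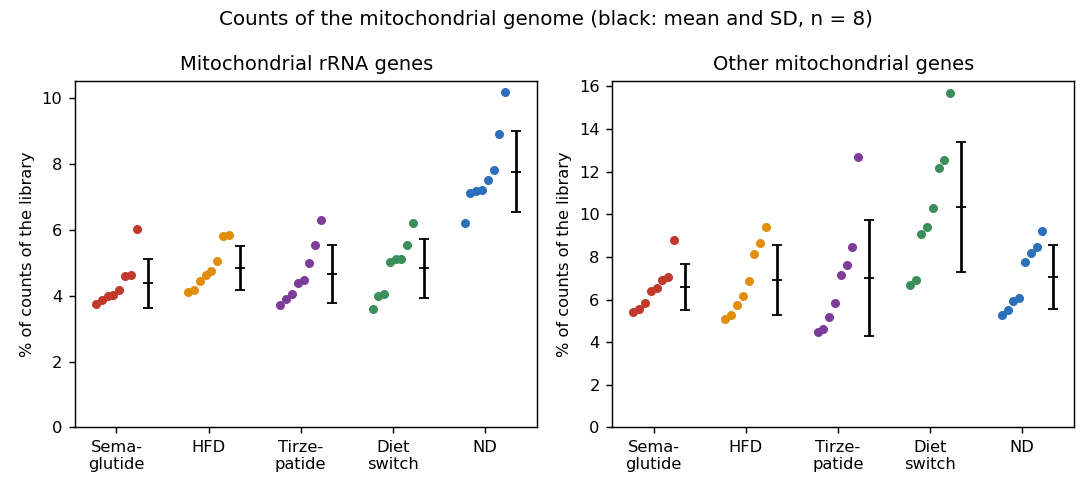
Percent of a library's counts in the 2 mitochondrial rRNA genes (left) and in the other genes of the mitochondrial genome (right), per library (points), with mean and SD in black (n = 8). The rRNA share is 3.75 to 6.02% with semaglutide and 6.21 to 10.2% in ND, with no overlap, whereas the other mitochondrial genes overlap between the groups.

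Most of the listed genes of fat burning and fat handling did not pass. Fatty acid oxidation had 2 of 24 members higher with semaglutide than in ND (0.905% of all genes were) and none lower. The median was -0.03. On HFD 6 were higher (2.83% of all genes were) and the median was 0.36. Cpt1a, which carries fatty acids into mitochondria, was higher by 0.69 ± 0.16 with semaglutide and by 0.90 ± 0.16 on HFD.

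In fatty acid uptake and binding, 1 of 12 tested members was lower with semaglutide (1.73% of all genes were), where 7 were higher on HFD (2.83%). The one was Angptl8, an insulin-induced inhibitor of lipoprotein lipase, with 0.285, 2.54 and 7.4 CPM with semaglutide, 5.11, 8.62 and 29.1 on HFD and 1.72, 19.0 and 62.1 in ND (log2 fold change -2.93 ± 0.65 for semaglutide minus ND, edgeR adjusted p = 0.00721). Acsl1, which activates fatty acids, was higher by 1.34 ± 0.21 log2 on HFD than in ND. With semaglutide it differed from ND by 0.45 ± 0.21 (95% confidence interval 0.04 to 0.87), which did not pass. Fabp4, a fatty acid binding protein, gave 0.58 ± 0.20 with semaglutide and did not pass either. With limma-voom Fabp4 did pass (adjusted p = 0.0111).

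Among 18 lipolysis and lipid droplet genes, 1 was lower with semaglutide (1.73% of all genes were). G0s2, an inhibitor of the lipase ATGL, had a log2 fold change of -1.25 ± 0.34 for semaglutide minus ND (202 to 423 against 282 to 1213 CPM, edgeR adjusted p = 0.0377), a call that ended when any of 11 libraries was left out (up to 0.0914). Plin2, a droplet coat protein, was 0.74 ± 0.15 log2 higher on HFD than in ND, and with semaglutide it lay at -0.37 ± 0.15 from ND and did not pass. Adrb3, the adrenergic receptor of adipocytes, had 30.0, 71.4 and 168 CPM with semaglutide, 18.8, 40.2 and 82.1 on HFD and 68.0, 203 and 264 in ND. All 8 semaglutide libraries lay below the ND median, yet the log2 fold change of -1.13 ± 0.33 missed the threshold (edgeR adjusted p = 0.0579). It passed when ND 2, ND 5, semaglutide 2 or semaglutide 4 was left out (0.0249 to 0.0457). With all libraries kept Adrb3 passed with DESeq2 (adjusted p = 0.0248) and limma-voom (0.0100).

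Of 16 brown and beige adipocyte genes, 1 was lower with semaglutide (1.73% of all genes were). It was Kcnk3, a potassium channel of thermogenic adipocytes, with 40.7, 70.9 and 104 CPM with semaglutide, 111, 156 and 198 on HFD and 68.3, 122 and 147 in ND (log2 fold change -0.70 ± 0.18 for semaglutide minus ND, edgeR adjusted p = 0.0204, and 0.0553 without ND 1). Ucp1, the uncoupling protein, was near 0 in most libraries of every group and reached 11.4 CPM in semaglutide library 8 and 43.0 CPM in ND library 6. Its log2 fold change of -1.90 ± 1.12 did not pass, and did without semaglutide 8 (edgeR adjusted p = 0.0373). Dio2, the deiodinase that activates thyroid hormone, was higher on HFD than in ND by 2.06 ± 0.50 log2. With semaglutide it lay at -1.34 ± 0.56 from ND, which did not pass.

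Hormones and secreted proteins of the adipocyte gave a mixed picture. Of 14 adipokines, 1 was higher with semaglutide and 2 lower, where 0.905% of all genes were higher and 1.73% lower. The list median was 0.02. Rbp4, retinol-binding protein, had 114, 149 and 256 CPM with semaglutide, 143, 206 and 319 on HFD and 206, 384 and 549 in ND. All semaglutide libraries lay below the ND median, with log2 fold changes of -1.32 ± 0.22 (edgeR adjusted p = 9.4e-05) beside -0.81 ± 0.22 on HFD. Retn, resistin, had 396 to 713 CPM with semaglutide and 638 to 1453 in ND, with log2 fold changes of -0.94 ± 0.19 and, on HFD, -0.75 ± 0.19.

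Among secreted-protein genes called on HFD, some did not pass with semaglutide. Lep, leptin, had 387, 879 and 2396 CPM with semaglutide, 1629, 1868 and 1999 on HFD and 147, 650.5 and 1110.2 in ND. The semaglutide range overlapped that of ND and took in that of HFD. The log2 fold change for semaglutide minus ND was 0.66 ± 0.29 (95% confidence interval 0.08 to 1.25, edgeR adjusted p = 0.251), beside 1.40 ± 0.29 for HFD minus ND. Cfd, adipsin, the protease of complement that adipocytes secrete, had 888, 3209 and 7877 CPM with semaglutide, 271, 643 and 1649 on HFD and 4049.7, 4809.6 and 8232 in ND. Its log2 fold change was -0.71 ± 0.32 for semaglutide minus ND (-1.36 to -0.05, edgeR adjusted p = 0.284) and -2.81 ± 0.35 for HFD minus ND. Gpx3, a secreted glutathione peroxidase, gave 0.12 ± 0.23 with semaglutide (-0.35 to 0.60) and -1.64 ± 0.24 on HFD. Adipoq, adiponectin, which was called in neither comparison, lay at -0.06 ± 0.17 with semaglutide (-0.41 to 0.28) and at -0.01 ± 0.17 on HFD. These intervals leave room for differences from ND, and a p that missed the threshold does not show that the lean level was reached.

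Of 7 genes tied to adipose expansion, 1 was higher with semaglutide than in ND and 3 on HFD, where 0.905% and 2.83% of all genes were. Sfrp5, a secreted Wnt inhibitor of growing fat, had 93.0, 391 and 597 CPM with semaglutide, 279.9, 362 and 462 on HFD and 22.9, 104 and 173 in ND. In 6 of 8 semaglutide libraries it lay above all ND libraries, with log2 fold changes of 1.76 ± 0.39 for semaglutide minus ND (edgeR adjusted p = 0.00721) and 1.82 ± 0.39 for HFD minus ND. Mest, an imprinted gene that marks enlarging adipocytes, had 1.85, 29.6 and 66.2 CPM with semaglutide, 21.3, 70.2 and 98.3 on HFD and 2.00, 16.5 and 25.5 in ND. Its log2 fold change of 1.22 ± 0.46 for semaglutide minus ND did not pass (0.29 to 2.15), beside 2.17 ± 0.46 for HFD minus ND. Pparg, the regulator of adipocyte identity, gave 0.38 ± 0.28, and none of the 14 adipogenic regulators passed.

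Peg3, an imprinted zinc finger gene on chromosome 7 (6703892 to 6730431), was chosen after its values were seen. It had 33.6, 299 and 377 CPM with semaglutide, 109.9, 212 and 331 on HFD and 19.2, 46.0 and 94.9 in ND. In 7 of 8 semaglutide libraries it lay above the ND median and in the other, library 1, below it. The log2 fold changes were 2.34 ± 0.44 for semaglutide minus ND (edgeR adjusted p = 0.00106) and 2.06 ± 0.44 for HFD minus ND.

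**Figure D4:**
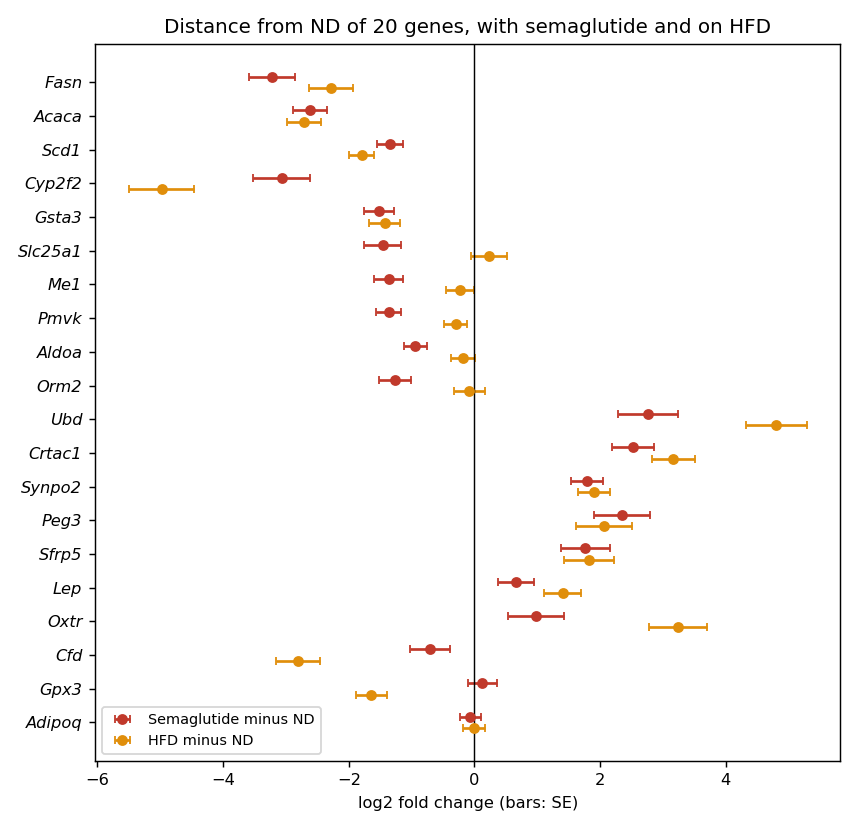
Log2 fold change from ND with its SE for 20 genes, with semaglutide (red) and on HFD (orange). Fasn, Acaca and Peg3 lie far from 0 in both, Slc25a1, Me1, Pmvk, Aldoa and Orm2 pass the test with semaglutide and not on HFD, and Lep, Oxtr, Cfd and Gpx3 pass on HFD and not with semaglutide.

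Genes of the major urinary proteins, lipid-carrying pheromone proteins that the mouse liver secretes in quantity, were far below ND. All 17 tested (of 22) were lower with semaglutide, with log2 fold changes of -4.91 to -4.42 and no overlap of the groups. On HFD 17 were lower, with a median of -3.12. Over all genes, 1.73% were lower with semaglutide, 0.652% lower without overlap, and 1.68% lower on HFD. Mup17 had 0.494, 1.63 and 3.83 CPM with semaglutide, 1.32, 4.36 and 13.2 on HFD and 23.6, 36.1 and 135 in ND, a log2 fold change of -4.91 ± 0.67 for semaglutide minus ND (edgeR adjusted p = 1.02e-05). Mup10, at 0.682 to 6.97 CPM with semaglutide and 42.1 to 267 in ND, and Mup22, at 1.82 to 7.60 and 48.9 to 299, behaved in the same way. The Mup genes are near-identical copies in 1 cluster on chromosome 4, so reads can be split among them and the 17 values are not separate measurements.

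Xenobiotic metabolism had 3 of 19 tested members lower with semaglutide and 5 lower on HFD, where 1.73% and 1.68% of all genes were. The median with semaglutide was 0.03. Cyp2f2, a monooxygenase of foreign compounds, had 3.18, 11.7 and 42.8 CPM with semaglutide, 0.22, 3.84 and 9.32 on HFD and 52.2, 118 and 248 in ND. It lay below all ND libraries in all 8 semaglutide libraries, with log2 fold changes of -3.07 ± 0.46 (edgeR adjusted p = 2.93e-05) beside -4.98 ± 0.52 on HFD, and semaglutide minus HFD was 1.91 ± 0.51 (0.0234). Gsta3 and Gsta4, glutathione transferases, gave -1.52 ± 0.24 and -1.56 ± 0.29 with semaglutide and -1.43 ± 0.24 and -1.40 ± 0.28 on HFD.

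Most of the listed immune genes did not pass. Of 14 inflammatory mediators tested (of 22), 2 were higher with semaglutide (0.905% of all genes were) and none lower. Ubd (FAT10), a ubiquitin-like modifier that cytokines induce, was the gene with the largest rise among those that met the rule for separated genes. It had 5.08, 13.7 and 43.5 CPM with semaglutide, 29.8, 75.7 and 108 on HFD and 0.754, 1.24 and 8.58 in ND. Every semaglutide library lay above the ND median though the ranges overlapped, and the log2 fold changes were 2.75 ± 0.48 for semaglutide minus ND (edgeR adjusted p = 0.000299), 4.80 ± 0.48 for HFD minus ND and -2.05 ± 0.40 for semaglutide minus HFD (0.00147). As a group, semaglutide thus lay between ND and HFD for Ubd and passed the test against each. Its libraries overlapped those of both.

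Il1rn, the antagonist of the interleukin 1 receptor, was higher by 1.79 ± 0.51 log2 with semaglutide (edgeR adjusted p = 0.0434), a call lost when any of 9 libraries was left out (up to 0.194), and without the B cell-high or the muscle-high libraries. The chemokine genes Ccl2 and Ccl11 gave 1.25 ± 0.47 and 1.05 ± 0.31 and did not pass, though Ccl11 did without semaglutide 1 (edgeR adjusted p = 0.0361). With only the 2 groups in the fit both passed (edgeR adjusted p = 0.0335 for Ccl2 and 0.00411 for Ccl11). Ccl11 also passed with DESeq2 (adjusted p = 0.0158) and limma-voom (0.0107). None of the 20 genes of lipid-associated macrophages passed with semaglutide (median 0.26). On HFD 7 were higher and 1 lower (median 0.71), where 2.83% of all genes were higher and 1.68% lower. Trem2, the lipid receptor of these macrophages, had 1.58, 8.67 and 36.0 CPM with semaglutide, 11.4, 16.8 and 28.4 on HFD and 2.51, 4.89 and 12.6 in ND, a log2 fold change of 1.02 ± 0.45 for semaglutide minus ND (95% confidence interval 0.10 to 1.94). Itgax (CD11c) gave 0.96 ± 0.30 (edgeR adjusted p = 0.0746) and Atp6v0d2, a proton pump subunit, 1.70 ± 0.53 (0.0802). Itgax passed without ND 2, ND 5 or ND 7 (0.0182 to 0.0398) and Atp6v0d2 without ND 7 or semaglutide 1 (0.000787 and 0.0324). With all libraries kept, Itgax passed with DESeq2 (adjusted p = 0.0408), limma-voom (0.00639) and edgeR with a replicate block (0.0398). Atp6v0d2 passed with DESeq2 (adjusted p = 0.0239). Whether a call was made among these genes thus depended on the method.

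No gene passed with semaglutide among 11 of resident macrophages, 20 of the interferon response and 7 of MHC class II. In complement, C6 was the 1 member lower of 14 (1.73% of all genes were). Its log2 fold change was -1.06 ± 0.31 (edgeR adjusted p = 0.0497), a call lost when any of 11 libraries was left out (up to 0.168). C3, the central component, gave -0.71 ± 0.22 and did not pass, but did without ND 7 (edgeR adjusted p = 0.0441) or semaglutide 1 (0.0132). With all libraries kept C3 passed with DESeq2 (adjusted p = 0.0387) and limma-voom (0.0102). B cell and T cell markers were high in 3 of the 8 semaglutide libraries and 1 of the 8 ND libraries. Without the B cell-high libraries no gene of the resident macrophage, interferon and MHC class II lists passed either. The MHC class II median was then -0.25, against 0.17 with all libraries. The part of lymphocytes in these values was not tested beyond leaving libraries out.

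Most of the listed genes of the extracellular matrix did not pass. Of 21 tested collagens, 2 were lower with semaglutide (1.73% of all genes were) and none higher, with a median of -0.44, where 1 was higher on HFD and the median was 0.20. Col5a3, a chain of fibrillar collagen V, had 117, 173 and 224 CPM with semaglutide, 221, 290.2 and 365 on HFD and 119, 296 and 483 in ND (log2 fold change -0.90 ± 0.20 for semaglutide minus ND, edgeR adjusted p = 0.00673). Col4a2, a chain of basement membrane collagen IV, gave -0.67 ± 0.17 with semaglutide and 0.34 ± 0.17 on HFD, and its semaglutide call was lost without ND 1, ND 2 or ND 4 (edgeR adjusted p up to 0.0582).

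Among 29 matrix crosslinking and matricellular genes, 3 were higher with semaglutide (0.905% of all genes were) and none lower, a median of 0.03. Thbs2, thrombospondin 2, which limits vessel growth, had 23.4, 46.4 and 85.5 CPM with semaglutide, 18.7, 26.3 and 32.2 on HFD and 10.9, 20.1 and 33.5 in ND. All semaglutide libraries lay above the ND median, with log2 fold changes of 1.20 ± 0.24 for semaglutide minus ND (edgeR adjusted p = 0.00104) and 0.29 ± 0.24 for HFD minus ND. Ccn1 (CYR61), a matricellular protein, was higher by 1.28 ± 0.32 with semaglutide and by 1.56 ± 0.32 on HFD. Thbs1 was higher by 1.5 ± 0.40 with semaglutide (edgeR adjusted p = 0.0331), a call lost when any of 9 libraries was left out (up to 0.0699).

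Other genes far above ND had no list of their own. Crtac1, a secreted matrix protein of cartilage, had 10.8, 40.3 and 67.5 CPM with semaglutide, 52.0, 63.4 and 92.6 on HFD and 2.57, 6.28 and 17.5 in ND. Each semaglutide library lay above the ND median, with log2 fold changes of 2.52 ± 0.34 (edgeR adjusted p = 5.95e-06) beside 3.16 ± 0.34 on HFD. Synpo2, an actin-binding protein, had 46.0, 162 and 249 CPM with semaglutide, 146, 162 and 175 on HFD and 28.9, 40.5 and 73.7 in ND, with log2 fold changes of 1.79 ± 0.25 and, on HFD, 1.90 ± 0.25. Zfyve28 was higher by 1.53 ± 0.33 with semaglutide and by 1.46 ± 0.33 on HFD. Cacna1e, a calcium channel subunit, was higher by 2.07 ± 0.58 (edgeR adjusted p = 0.044), a call lost when any of 13 libraries was left out (up to 0.0987).

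Of 10 cell division genes, 1 was higher with semaglutide (0.905% of all genes were). Cdk1, the kinase that drives mitosis, had 4.69, 7.07 and 9.51 CPM with semaglutide, 6.00, 13 and 18.5 on HFD and 1.01, 2.57 and 4.86 in ND, with log2 fold changes of 1.52 ± 0.41 for semaglutide minus ND (edgeR adjusted p = 0.03) and 2.38 ± 0.41 for HFD minus ND. Its call was lost without ND 1, 2, 3 or 8 (edgeR adjusted p up to 0.0768). Stmn1, which destabilizes microtubules in dividing cells, gave 0.82 ± 0.26 and did not pass. It did with only the 2 groups in the fit (edgeR adjusted p = 0.0225) and with limma-voom (adjusted p = 0.0349).

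Some clock genes differed from ND, in both directions. Of 12 core clock genes tested (of 13), 4 were higher with semaglutide and 1 lower, and of 6 clock output factors 4 were higher and 1 lower, where 0.905% of all genes were higher and 1.73% lower. On HFD 1 core gene was higher and 1 lower, and no output factor differed from ND. The core clock calls were also 4 and 1 without the B cell-high and without the muscle-high libraries, but of the output factors 1 higher and 1 lower remained called without the muscle-high libraries.

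Per2, a repressor of the loop, had 14.3, 33.5 and 47.5 CPM with semaglutide, 12.5, 15.4 and 19.3 on HFD and 2.86, 7.46 and 9.82 in ND. The semaglutide libraries lay above all ND libraries, with log2 fold changes of 2.11 ± 0.26 for semaglutide minus ND (edgeR adjusted p = 5.77e-07), 1.08 ± 0.26 for HFD minus ND and 1.03 ± 0.24 for semaglutide minus HFD (0.00781). Per3, its relative, had 43.1, 69.8 and 100.1 CPM with semaglutide, 21.8, 39.2 and 63.1 on HFD and 13.7, 25.7 and 36.7 in ND, a log2 fold change of 1.49 ± 0.20 with semaglutide, again without overlap.

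Nr1d2 (REV-ERB beta), which represses Arntl, was higher by 1.47 ± 0.20 log2 (29.6 to 60.4 CPM with semaglutide, 11.3 to 18.5 in ND). Ciart, a repressor of the CLOCK and BMAL1 pair, was higher by 2.1 ± 0.41 (2.28 to 13.6 CPM with semaglutide, 0.769 to 2.70 in ND). Arntl itself had 1.90, 6.38 and 11.1 CPM with semaglutide, 5.92, 8.95 and 14.4 on HFD and 12, 21.1 and 41.2 in ND, and with log2 fold changes of -1.89 ± 0.36 (edgeR adjusted p = 0.000653) and, on HFD, -1.30 ± 0.35 it was lower where Per2, Per3, Nr1d2 and Ciart were higher. The other 7 tested core genes did not pass. Among them, the log2 fold changes for semaglutide minus ND were 0.41 ± 0.24 for Per1, -0.63 ± 0.30 for Cry1, 0.05 ± 0.16 for Cry2 and 0.45 ± 0.34 for Nr1d1, further repressors, and -0.40 ± 0.17 for Clock and 0.04 ± 0.15 for Rora, activators. Repressors of the loop were thus called in part and not as a whole. The labels give no hour of collection, and its part in the clock gene values was not tested.

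Output factors were called in both directions too. Dbp, Hlf and Tef, activators that bind the D-box, were higher with semaglutide by 2.03 ± 0.51, 1.12 ± 0.19 and 0.82 ± 0.19 log2, where HFD minus ND gave 0.73 ± 0.53, 0.06 ± 0.19 and 0.27 ± 0.19. Nfil3, a repressor at the same site, had 0.317, 1.36 and 2.48 CPM with semaglutide, 1.41, 4.59 and 10.5 on HFD and 2.87, 7.81 and 15.7 in ND, a log2 fold change of -2.51 ± 0.48 for semaglutide minus ND (edgeR adjusted p = 0.000792). Hlf had 27.2, 49.9 and 65.2 CPM with semaglutide, 17.8, 25.2 and 27.8 on HFD and 13.4, 22.1 and 32.0 in ND, and all semaglutide libraries lay above the ND median. The call of Dbp was lost without semaglutide 2 (edgeR adjusted p = 0.058), and without the muscle-high libraries those of Dbp and Tef were lost (0.0683 and 0.0628). Bhlhe41, a repressor of clock genes, was higher by 0.80 ± 0.22, a call lost when any of 11 libraries was left out (edgeR adjusted p up to 0.102). Wee1, a mitotic kinase that the clock is known to control, was higher by 1.59 ± 0.33 log2, with 8.27 to 19.4 CPM with semaglutide and 1.54 to 7.33 in ND.

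**Figure D5:**
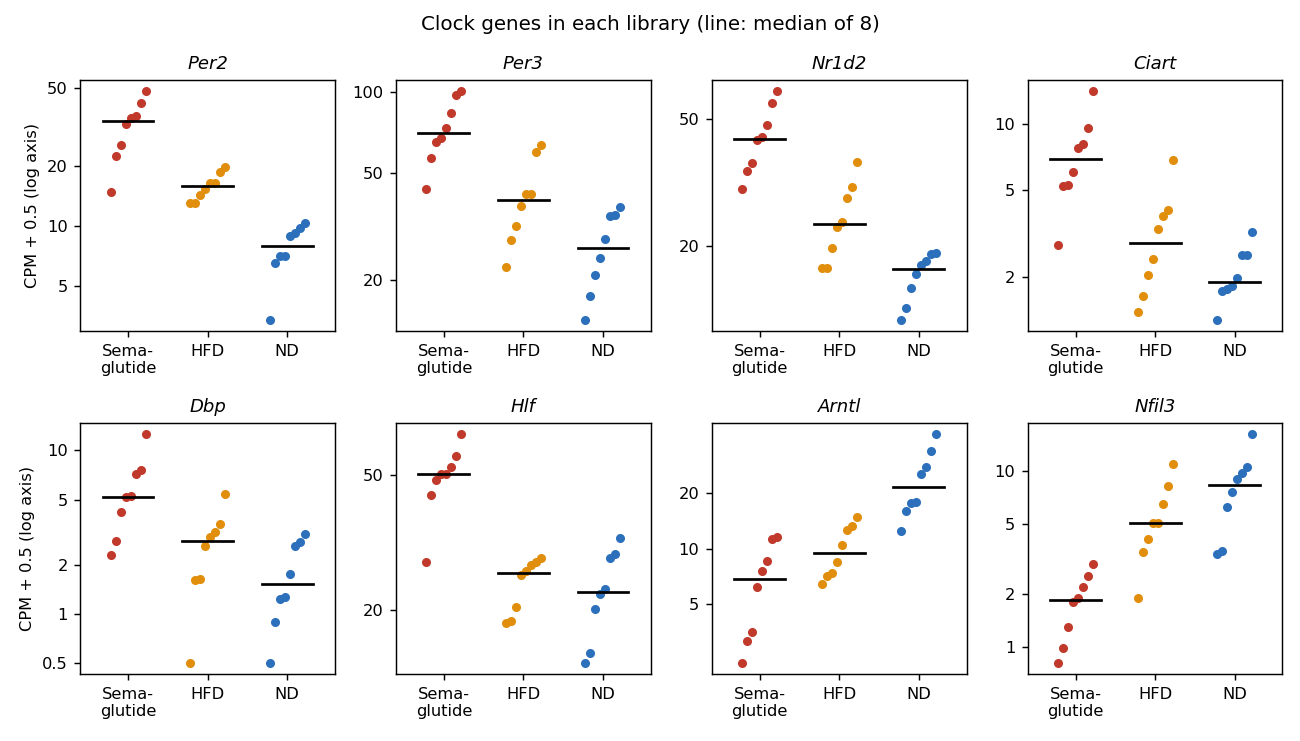
CPM plus 0.5 on a log axis of 8 clock genes in each library (points), with the median of 8 as a line, for semaglutide, HFD and ND. Per2, Per3 and Nr1d2 lie above all ND libraries with semaglutide, Arntl and Nfil3 below all of them, and the HFD medians lie between for these 5 genes.

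Because clock factors act through short promoter motifs, the promoters of these genes were searched in the RefSeq table (GRCm38.p6, 250 bases before to 50 after the start, both strands). Of 19 genes of the clock lists, 16 had a promoter there. The E-box CACGTG, which CLOCK and BMAL1 bind, was in 5 of the 16, the D-box TTATGTAA in 1 and the ROR element TAGGTCA in 1, and they occurred in 7.24%, 0.955% and 2.64% of all 27025 promoters of the table. The promoters with an E-box were those of Ciart, Tef and Bhlhe41, which were called, and of Per1 and Cry1, which were not. Nr1d2, Arntl, Dbp and Hlf were called and had no match to any of the motifs. The motifs do not overlap one another in the 3 promoters shown, which are those with the most matches of each motif. A link between motif and call was not tested. A match is a description of the sequence and not a binding site, and the windows are short. The promoter of Ciart is chr3:95882179-95882478 (minus strand) with 3 E-boxes in capitals, that of Per3 chr4:151044616-151044915 (minus strand) with 2 D-boxes in capitals, and that of Nfil3 chr13:52980990-52981289 (minus strand) with 1 ROR element, read on the other strand as TGACCTA, in capitals.
Ciart: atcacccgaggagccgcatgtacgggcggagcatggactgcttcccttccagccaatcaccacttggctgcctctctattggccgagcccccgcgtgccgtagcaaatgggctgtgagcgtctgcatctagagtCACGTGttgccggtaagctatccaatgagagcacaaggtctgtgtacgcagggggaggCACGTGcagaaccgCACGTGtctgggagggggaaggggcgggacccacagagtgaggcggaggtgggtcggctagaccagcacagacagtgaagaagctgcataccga
Per3: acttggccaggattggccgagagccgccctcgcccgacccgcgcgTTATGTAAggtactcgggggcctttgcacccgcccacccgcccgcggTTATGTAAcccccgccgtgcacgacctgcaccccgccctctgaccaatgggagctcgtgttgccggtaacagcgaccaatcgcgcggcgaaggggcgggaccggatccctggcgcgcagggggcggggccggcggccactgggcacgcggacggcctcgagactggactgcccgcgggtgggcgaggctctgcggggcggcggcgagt
Nfil3: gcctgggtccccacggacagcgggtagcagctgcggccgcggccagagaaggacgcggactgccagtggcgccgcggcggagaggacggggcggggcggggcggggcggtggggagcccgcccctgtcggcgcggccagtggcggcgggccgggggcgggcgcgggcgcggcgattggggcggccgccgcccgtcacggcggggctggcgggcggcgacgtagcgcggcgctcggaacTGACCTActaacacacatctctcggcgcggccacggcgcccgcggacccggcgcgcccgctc

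Among receptors, Glp1r, the receptor of the drug, did not pass the filter and summed to 8 counts over the 8 semaglutide libraries, 3 over the 8 HFD libraries and 24 over the 8 ND libraries, of 29699007, 32618685 and 30026647 counts in all, so no difference could be tested at this depth. Gipr, the receptor of the other incretin, had 0 to 5.42 CPM with semaglutide and 0 to 1.76 in ND, and its log2 fold change of 1.64 ± 0.56 did not pass, but did without semaglutide 1 (edgeR adjusted p = 0.0489). Oxtr, the oxytocin receptor, had 4.49, 20.2 and 74.4 CPM with semaglutide, 53.2, 144 and 213 on HFD and 3.14, 13.1 and 40.8 in ND. The semaglutide and ND ranges overlapped widely, with log2 fold changes of 0.97 ± 0.45 for semaglutide minus ND (95% confidence interval 0.07 to 1.88) and 3.24 ± 0.46 for HFD minus ND. Pck1, the enzyme of glyceroneogenesis, gave 0.15 ± 0.27 for semaglutide minus ND and -0.80 ± 0.27 for HFD minus ND, and neither passed.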

How the data were processed

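RNA of sWAT was measured by 3' RNA sequencing (QuantSeq), and the table the authors deposited holds whole-number counts by gene symbol for 40 libraries. Reads were placed on mm10, per the submitters' processing notes, and which aligner and counter were run is not given in the sources used here. A normalized table by the authors was not used, and 16 of its columns match no sample. The deposited counts were fitted with edgeR 4.0.16 (TMM scaling, default filterByExpr on the 5 groups, robust quasi-likelihood test, all 40 libraries in 1 model), and p-values were adjusted by Benjamini-Hochberg over the 15807 genes tested, which hold 99.4% of counts. A gene was called at an adjusted p under 0.05. SE is the absolute log2 fold change divided by the square root of F. CPM used TMM library sizes, and log2 CPM a prior count of 2.

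The text names the 12 highest and 12 lowest called genes that were separated by group medians and averaged 2 log2 CPM or more, plus as many as 6 members of each list. Some genes that this rule takes in are not reported here. The members and lists were chosen with earlier results of these data known, and genes added after their values were seen are marked as such. Coordinates come from GENCODE M21 (GRCm38). Alternatives were DESeq2 1.42.0, limma 3.58.1 (voom with quality weights), other scaling and filters, a replicate block, and leaving out libraries.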

Additional observations from a re-analysis of the deposited data

Results flagged for a closer look

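In 22 of 228 groups checked (114 genes in the semaglutide and in the ND group, 8 libraries each), 1 library lay far from the other 7 on the log2 CPM scale. Chance alone marks about 1 in 20 such groups. The part of single libraries in these values was not tested beyond leaving each out.

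Semaglutide library 1 was the lowest of its group for Crtac1 (3.51 log2 CPM), Scd1 (11), Mest (1.24) and Peg3 (5.09). Semaglutide library 3 was lowest for Tkt (6.46) and semaglutide library 2 for Mvd (1.90). Semaglutide library 8 was highest for Ucp1 (3.57) and Elovl6 (4.49).

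ND library 5, which had the highest B cell markers and the lowest adipocyte markers of its group, was the lowest ND library for Per2 (1.76), Ndufs3 (6.06), Rbp4 (7.69), Lep (7.20), Sfrp5 (4.55), Col5a3 (6.90), Col4a2 (7.79), Pparg (6.17), Pnpla3 (3.14) and Orm2 (6.84). ND library 2 was lowest for Adrb3 (6.10) and Stmn1 (2.90). ND library 6 was highest for Ucp1 (5.44), and ND library 7 for Atp6v0d2 (3.57).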

How the results depend on the processing

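Beside the 417 genes called, the number was 267 with no filter on low counts (73 higher with semaglutide; 254 shared with the 417) and 952 with limma-voom with quality weights (408 higher, 544 lower; 407 shared). Leaving out 1 library at a time gave 256 to 853 genes, 69 to 382 higher and 184 to 471 lower. Without the muscle-high libraries of any group in the series 70 genes were higher. DESeq2 called 588. The median over all genes stayed within 0.1 log2 of 0 under every alternative run. Library numbers did not pair the groups: over 8 pairs the correlation of same-numbered libraries was -0.349 to 0.193, and 2 correlated best with their own number. With the replicate block 425 genes were called (156 higher, 269 lower). Of the 88 called genes among the 114 examined one by one, 63 were called under every alternative that tested them (82 of the 88 were tested with only the 2 groups in the fit, 88 under each other alternative), 25 lost the call under at least one, and none changed direction. Another 12 genes passed under some alternative. The cause of these changes was not tested. Depth limits genes near the filter, such as Glp1r, which could not be tested.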

Other observations

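The genes in this section were picked after their values were seen. Of genes of secreted serum proteins, 5 are given here and no list was tested. Orm2, an orosomucoid, had 43.1, 91.9 and 106 CPM with semaglutide, 133, 177 and 252 on HFD and 114, 204 and 239 in ND (lowest, median and highest of 8). The semaglutide libraries lay below all ND libraries, with log2 fold changes of -1.27 ± 0.26 for semaglutide minus ND (edgeR adjusted p = 0.00184), -0.08 ± 0.25 for HFD minus ND and -1.19 ± 0.26 for semaglutide minus HFD. Orm1 gave -1.21 ± 0.26 and Orm3 -1.79 ± 0.30 for semaglutide minus ND, and as the Orm genes are close copies their counts are uncertain. Serpina3n, a protease inhibitor, gave -1.25 ± 0.24 with semaglutide and -0.28 ± 0.23 on HFD. Alb, albumin, gave -2.07 ± 0.38 with semaglutide and -2.05 ± 0.38 on HFD.

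Other single genes outside the lists follow. Slc2a5, the fructose transporter, had 0 to 1.23 CPM with semaglutide, 0 to 0.188 on HFD and 0.614 to 18.9 in ND, and differed between semaglutide and ND (edgeR adjusted p = 6.79e-05). Pygl, a glycogen phosphorylase, had 41.2 to 76.7 CPM with semaglutide, 55.9 to 87.8 on HFD and 102 to 167 in ND, without overlap of semaglutide and ND. Pnpla3, a lipid droplet hydrolase, gave -1.72 ± 0.32 with semaglutide (edgeR adjusted p = 0.000565) and -0.67 ± 0.31 on HFD. Zim1, the imprinted neighbour of Peg3 on chromosome 7 (6671269 to 6696450), was higher by 2.11 ± 0.61 with semaglutide (edgeR adjusted p = 0.0468) and by 2.22 ± 0.61 on HFD. Its semaglutide call was lost when any of 12 libraries was left out (up to 0.119).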
